A study of Mus musculus with 20 samples.

Results

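The genes described here are 10 genes of the liver sinusoidal endothelium, Stab1, Stab2, Lyve1, Clec4g, Fcgr2b, Oit3, Kdr, Pecam1, Cdh5 and Bmp2, matched by symbol among the 55487 gene identifiers of a table of raw read counts, where all 10 were found. They were measured in liver RNA of 20 female C57BL/6J mice aged 28 weeks, with 1 library per mouse. The mice entered the study at 8 weeks of age. Chow-fed mice (n = 5) stayed on chow, while the other mice first received a high fat diet (HFD) and then, for 10 weeks, isocaloric HFDs in which 50% of the protein came from fishmeal made of salmon by-products (n = 5), from salmon filet (n = 6) or from beef (n = 4). All 15 HFD-fed mice thus share the earlier HFD, and no group analysed here stayed on the first HFD. Mouse 31 is a salmon filet mouse by its sample label, while its column in the count table is named for beef. The paper describes sequenced groups of equal size. Only the grouping by column name gives such groups, so the column name and the paper's group sizes both go against the label. Mouse 31 was kept with its label in the main analysis. Salmon filet and beef results given by label may therefore hold a misplaced mouse. Some of these results, but not all, are also given with the mouse in the group that its column names, where this is stated. The comparison of all HFD-fed mice with chow-fed mice does not depend on it.

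Sinusoidal endothelial cells line the smallest blood vessels of the liver. They lack a continuous basement membrane, carry open pores and clear waste molecules from blood through scavenger, lectin and Fc receptors. They also secrete BMP ligands that act on neighbouring hepatocytes, where BMP signalling through SMAD proteins controls hepcidin, the hormone of iron balance.

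The libraries held 42526234 to 70266136 counted reads. The share of reads on protein coding genes was 93.2% to 95.6%, except for 84.3% in mouse 35, a beef mouse, and leaving that mouse out changed no call among the 10 genes. Hepatocyte markers (7 genes) summed to between 100800 and 138100 TPM (reads per gene length, scaled to the same total in each library) in every library, and adipocyte markers (4 genes) to at most 0.577 TPM, with Lep at 0 counts throughout. Each of the 10 endothelial genes had at least 198 reads in every library and at most 6389, and all 10 passed the filter on low counts in every comparison.

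As receptor genes whose upstream sequence lies wholly outside the gene in both annotations used here, Clec4g, which was lower in HFD-fed mice, and Stab1, which was not called, are shown with the 250 bases before the start of the gene, from RefSeq on GRCm38.p6. The Clec4g sequence is at chr8:3720652-3720901 and the Stab1 sequence at chr14:31168642-31168891, both on the minus strand and written 5′ to 3′. Capitals mark AGGAAG or its reverse CTTCCT, the core of many ETS factor sites.

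Clec4g: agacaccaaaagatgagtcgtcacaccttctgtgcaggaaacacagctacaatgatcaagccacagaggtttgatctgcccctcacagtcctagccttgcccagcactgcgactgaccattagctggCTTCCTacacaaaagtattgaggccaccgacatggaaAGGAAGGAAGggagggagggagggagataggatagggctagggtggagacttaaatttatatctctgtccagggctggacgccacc

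Stab1: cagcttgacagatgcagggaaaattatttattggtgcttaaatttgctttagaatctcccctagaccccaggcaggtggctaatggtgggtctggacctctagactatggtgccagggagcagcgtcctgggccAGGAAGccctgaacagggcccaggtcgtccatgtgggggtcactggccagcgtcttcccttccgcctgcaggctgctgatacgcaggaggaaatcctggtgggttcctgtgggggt

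Clec4g held 3 matches of which a pair overlapped, and Stab1 held 1. Such a match was present in 29.5% of 32851 promoters of the same length. The GATA letters AGATAA (9.99% of promoters) and TGATAA (7.94%) were searched on both strands and found in neither sequence. Sequences were held for 5 of the 10 genes, and the matches are a description of letters only.

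Levels of different genes were compared per length, in TPM over all 20 mice. Clec4g (chromosome 8, 3707064 to 3720651 on GRCm38, minus strand), which encodes the C-type lectin LSECtin, was highest at 42.1 ± 6.43 TPM (SD, n = 20), and it was above the next gene in 20 of 20 mice. Fcgr2b (21.6 ± 4.06), Stab2 (19.9 ± 3.70) and Oit3 (18.3 ± 3.53) followed. Neighbours among these 3 differed in their mean by less than 1 SD, with Fcgr2b above Stab2 in 12 of 20 mice and Stab2 above Oit3 in 14 of 20.

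The adhesion and growth factor receptor genes were lower, and so was the scavenger receptor gene Stab1. Cdh5 stood at 14.4 ± 2.79 TPM, Kdr at 12.0 ± 2.57, Stab1 at 10.3 ± 2.16 and Pecam1 at 7.71 ± 1.49. Kdr was above Stab1 in 13 of 20 mice. Bmp2 (6.66 ± 1.2) and Lyve1 (5.64 ± 2.03) were lowest, and Bmp2 exceeded Lyve1 in 15 of 20 mice. The means of Cdh5 and Kdr, of Kdr and Stab1, of Pecam1 and Bmp2 and of Bmp2 and Lyve1 also differed by less than 1 SD.

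The first comparison asked whether the sinusoidal genes differ between HFD-fed and chow-fed mice. In HFD-fed mice Clec4g fell by 18.5%, Fcgr2b fell by 21.1% and Bmp2 fell by 20.6%, and no member was higher at the threshold. With edgeR's quasi-likelihood test and an adjusted p under 0.05 taken as a call, 3 of the 10 genes were called, all of them lower, while 9.75% of the 17120 genes tested were called in either direction, 5.21% lower and 4.54% higher. The estimate was below 0 for 8 of the 10, and the median log2 fold change was -0.25 beside 0.01 over all genes tested. In whole liver RNA, fewer cells of a type and less RNA per cell cannot be told apart.

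**Figure D1:**
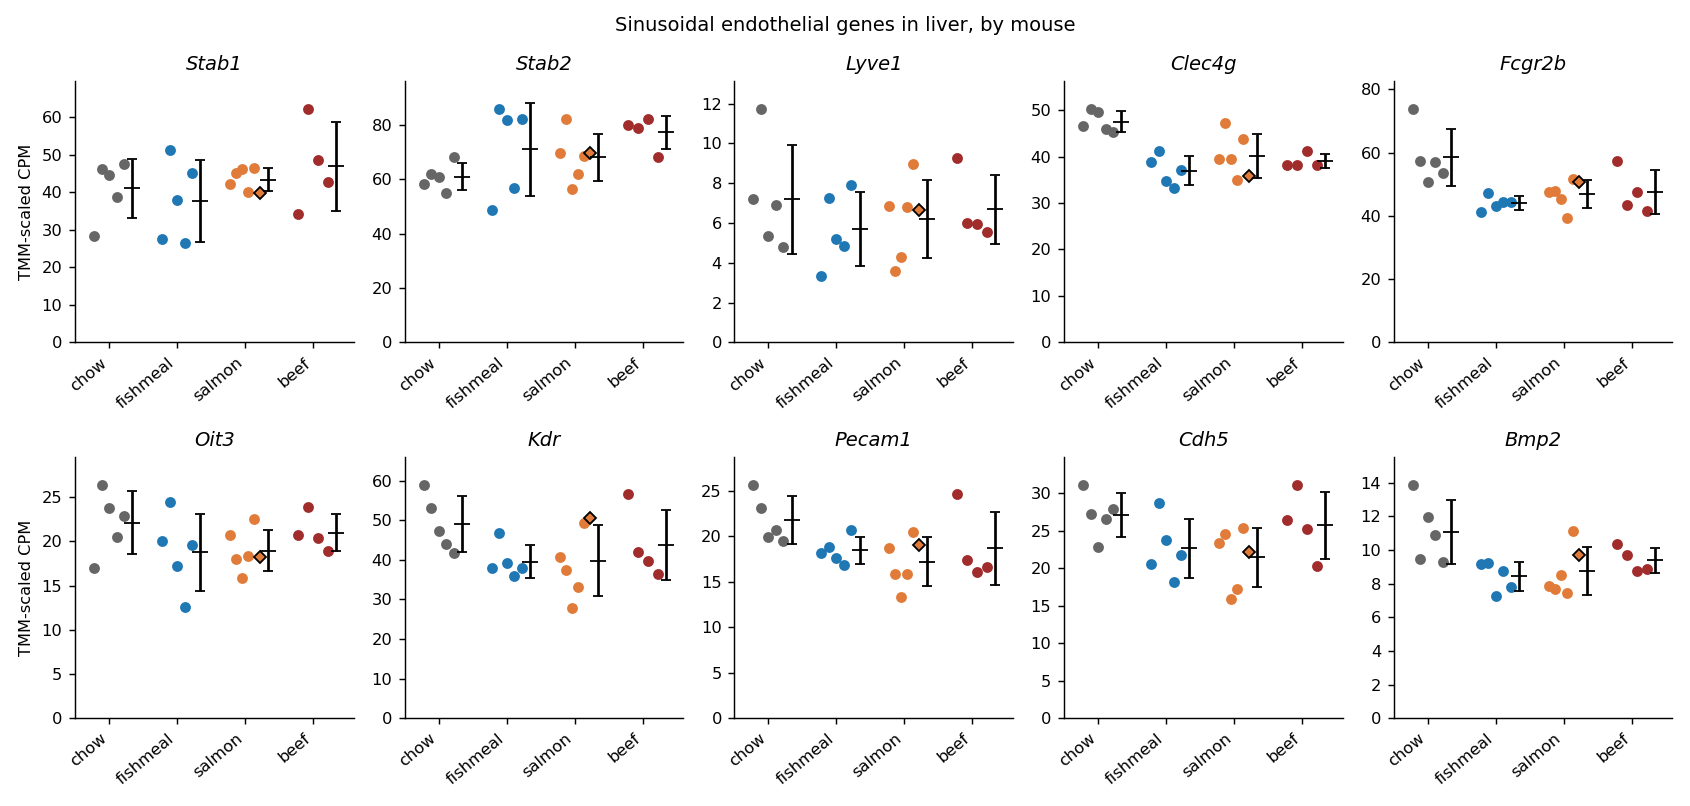
Level of each of the 10 genes in every mouse, as CPM (reads relative to library size) scaled by TMM factors (vertical axis from 0), for chow (grey), fishmeal (blue), salmon filet (orange) and beef (red). Points are mice, the diamond is mouse 31, and the bar beside each group is the mean ± SD. Clec4g lies at 45.3 to 50.2 in chow-fed mice and at 33.2 to 47.1 in HFD-fed mice.

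Among the scavenger and lectin receptors, Clec4g changed with the smallest p. Its level, in CPM scaled by TMM factors, was 46.6, 50.2, 49.6, 45.8 and 45.3 in the chow-fed mice. In HFD-fed mice the lowest value was 33.2, the median 38.2 and the highest 47.1. The 14 HFD-fed mice other than mouse 23, a salmon filet mouse, lay below every chow-fed mouse, and all 15 lay below the chow mean. The log2 fold change was -0.29 ± 0.07 (SE, 95% confidence interval -0.44 to -0.15, adjusted p = 0.00758). It was called with each of the 20 mice left out in turn, with an adjusted p of 0.0332 at most. Exons of Gm16553 overlap Clec4g on the other strand, and whether counting used the strand is not given in the sources used here.

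Fcgr2b (chromosome 1, 170958617 to 170976547, minus strand), the inhibitory Fc gamma receptor that takes up small immune complexes in these cells, was also lower. Chow-fed mice had 73.7, 57.4, 50.6, 57.1 and 53.4 CPM. HFD-fed mice ranged from 39.2 through a median of 45.2 to 57.3 CPM. Of the 15 HFD-fed mice, 3 lay within the chow range and the other 12 below it. The log2 fold change was -0.34 ± 0.08 (interval -0.51 to -0.17, adjusted p = 0.0110). Chow mouse 1 had the highest value, and without that mouse the log2 fold change was -0.24 and the call was lost (adjusted p = 0.0762).

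Fcgr2b shares 96.3% of 512 aligned bases with Fcgr3, so reads of these genes could be split in counting, and Gm38204 overlaps it on the other strand. Fcgr3 itself was at 5.93 ± 1.76 CPM in chow-fed and 6.77 ± 1.33 CPM in HFD-fed mice (log2 fold change 0.19 ± 0.16, adjusted p = 0.521). B lymphocytes also express Fcgr2b, and lymphocyte markers moved with the diet. Of 9 such markers 7 were called lower, with a median log2 fold change of -1.07, and their summed TPM was 7.69 to 17.8 in chow-fed and 2.94 to 8.45 in HFD-fed mice. The B cell genes Ms4a1 (-1.38 ± 0.22), Cd79b (-1.08 ± 0.22) and Cd79a (-1.40 ± 0.35, all log2 fold changes) were among them, and the highest value of these 3 genes in a chow-fed mouse was 3.86 CPM, of Cd79a. Their part in the lower Fcgr2b and Pecam1 counts was not tested.

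The related scavenger receptors Stab1 and Stab2 had estimates above 0, which held for Stab2 in all 29 analyses run and for Stab1 in all but 5, among them those on TPM and with offsets for GC content and length. Stab2 (chromosome 10, 86841198 to 87008025, minus strand), which clears hyaluronan from blood, was at 58.3, 62.0, 60.7, 55.0 and 68.3 CPM in chow-fed mice. HFD-fed mice had 48.5 CPM at the lowest, 69.6 at the median and 85.8 at the highest. Fishmeal mice 12 and 16, at 48.5 and 56.7 CPM, and salmon filet mouse 25, at 56.3 CPM, lay below the chow mean, and the other 12 HFD-fed mice exceeded it. The log2 fold change of 0.23 ± 0.11 had an interval of -0.00 to 0.46 and was not called (adjusted p = 0.209). Stab1 (chromosome 14, 31139013 to 31168641, minus strand) was at 41.1 ± 7.88 CPM in chow-fed and 42.4 ± 8.98 CPM in HFD-fed mice, with a log2 fold change of 0.04 ± 0.15 and an interval of -0.26 to 0.35. Exons of Nt5dc2 overlap those of Stab1, and exons of Gm16268 those of Stab2, each on the other strand.

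Lyve1 (chromosome 7, 110850607 to 110863239, minus strand), a hyaluronan receptor, had the highest coefficient of variation of the 10 genes over all mice, 31.5%. It was at 7.20 ± 2.74 CPM in chow-fed and 6.17 ± 1.77 CPM in HFD-fed mice, and its log2 fold change of -0.22 ± 0.21 had an interval of -0.66 to 0.21 and was above 0 in 2 of the 29 analyses. Chow mouse 2 stood highest at 11.7 CPM. Oit3 (chromosome 10, 59422958 to 59441778, minus strand) was at 22.1 ± 3.58 and 19.4 ± 3.04 CPM, with a log2 fold change of -0.19 ± 0.12 (interval -0.43 to 0.05). Neither gene was called (adjusted p = 0.558 and 0.334).

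Genes of the vessel wall had estimates close to those of the called genes but did not pass the threshold. Kdr (chromosome 5, 75932827 to 75978458, minus strand), the main VEGF receptor of endothelium, was at 49.0 ± 7.02 CPM in chow-fed and 40.8 ± 7.37 CPM in HFD-fed mice, with a log2 fold change of -0.27 ± 0.12 (interval -0.51 to -0.02, adjusted p = 0.168). Pecam1 (chromosome 11, 106654217 to 106750628, minus strand), an adhesion molecule of endothelium, platelets and leukocytes, was at 21.8 ± 2.60 and 18.0 ± 2.65 CPM, with a log2 fold change of -0.27 ± 0.10 (interval -0.48 to -0.07, adjusted p = 0.0867). Of the 15 HFD-fed mice 14 lay below the chow mean of Pecam1. The exception was beef mouse 32 at 24.6 CPM, and without it Pecam1 was called (log2 fold change -0.31, adjusted p = 0.0245). Cdh5 (chromosome 8, 104101625 to 104144511, plus strand), the cadherin of endothelial junctions, was at 27.1 ± 2.95 and 23.0 ± 4.20 CPM, with a log2 fold change of -0.24 ± 0.12 (interval -0.49 to 0.01, adjusted p = 0.220).

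Bmp2 (chromosome 2, 133552159 to 133562885, plus strand) was the secreted ligand among the 10. Chow-fed mice had 13.9, 9.44, 11.9, 10.9 and 9.29 CPM. HFD-fed mice had 7.26 CPM at the lowest, 8.77 at the median and 11.1 at the highest, and 4 of the 15 lay within the chow range. The log2 fold change was -0.33 ± 0.10 (interval -0.54 to -0.13, adjusted p = 0.0360). This call was lost in 6 of the 20 cases where 1 mouse was left out. Those were chow mice 1 (adjusted p = 0.196), 5 (0.0881) and 7 (0.0651), fishmeal mouse 20 (0.0550) and salmon filet mice 22 (0.0523) and 26 (0.0532).

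For none of the 10 genes were the 15 HFD-fed mice fully apart from the 5 chow-fed mice, which was the case for 1.64% of all genes tested. The circadian clock genes also differed by diet, with 11 of 15 called, beside 9.75% of all genes. They moved in both directions, 9 called higher and 2 called lower, and the median log2 fold change was 1.21. A clock score, the first principal component of these 15 genes with 85.5% of their variance, ran from -5.39 to -2.01 in chow-fed and from -3.55 to 6.34 in HFD-fed mice. With that score as a covariate, 0 of the 10 genes were called (1 with an unadjusted p under 0.05), as were 1.62% of all genes. Clec4g then had a log2 fold change of -0.32 (adjusted p = 0.105), Fcgr2b of -0.23 (0.411) and Bmp2 of -0.26 (0.473). The clock score and the diet overlap in few mice, so their parts cannot be told apart here.

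Each HFD group was then set against chow to see whether the pattern belonged to one protein source. These 3 comparisons share the same 5 chow-fed mice and are not independent. In fishmeal-fed mice Clec4g and Fcgr2b were called lower, 2 of 10 genes beside 3.38% of 16471 genes. In salmon filet-fed and beef-fed mice, grouped by label, 0 of 10 were called, beside 4.46% and 2.48% of all genes tested. With mouse 31 counted as beef, Clec4g was called lower in beef-fed mice (adjusted p = 0.0431 in edgeR). The counts that follow use the labels. Of the 10 genes, 5 in salmon filet-fed and 3 in beef-fed mice had an unadjusted p under 0.05. DESeq2 called 0 for salmon filet and 2 for beef (Clec4g, and Stab2 as higher), beside 8.81% and 6.17% of all genes in that analysis, and limma on log2 TPM called 0 for both, beside 2.88% and 1.83%.

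**Figure D2:**
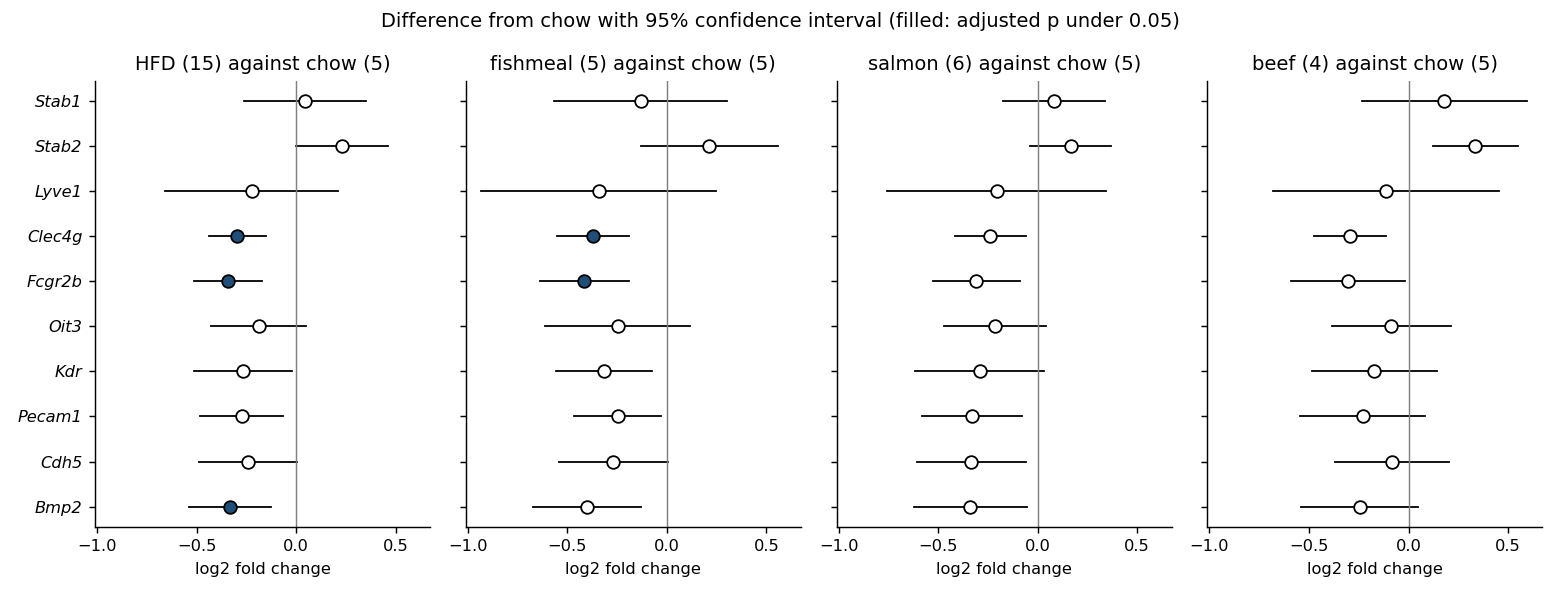
Log2 fold change from chow (horizontal axis) with its 95% confidence interval for the 10 genes, in all HFD-fed mice and in each protein source. Filled points passed an adjusted p under 0.05 in edgeR's quasi-likelihood test, namely Clec4g, Fcgr2b and Bmp2 in all HFD-fed mice and Clec4g and Fcgr2b with fishmeal. Stab2 lies above 0 in all 4 panels.

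Clec4g was at 38.8, 41.1, 34.7, 33.2 and 37.0 CPM with fishmeal, at 35.0, 39.4 and 47.1 CPM (lowest, median and highest) with salmon filet and at 38.1, 38.2, 41.2 and 38.2 CPM with beef. The fishmeal and beef values all lay below the lowest chow-fed mouse. The log2 fold change was -0.37 ± 0.08 with fishmeal (adjusted p = 0.0316), -0.24 ± 0.08 with salmon filet (0.119) and -0.29 ± 0.08 with beef (0.0894). With mouse 31 counted as beef, the log2 fold change became -0.32 ± 0.08 with beef, and Clec4g was then called (adjusted p = 0.0431). With salmon filet it became -0.21 ± 0.08 (adjusted p = 0.157).

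Fcgr2b was at 41.2, 47.2, 43.1, 44.3 and 44.5 CPM with fishmeal, all below the lowest chow-fed mouse. It was at 39.2, 47.6 and 51.5 CPM (lowest, median and highest) with salmon filet and at 57.3, 43.6, 47.6 and 41.6 CPM with beef, where both groups reached into the chow range. The log2 fold changes were -0.42 ± 0.10 with fishmeal (adjusted p = 0.0487), -0.31 ± 0.10 with salmon filet (0.101) and -0.31 ± 0.13 with beef (0.249). With mouse 31 counted as beef, they were -0.33 ± 0.11 with salmon filet (0.0931) and -0.28 ± 0.12 with beef (0.223). Against chow, the Fcgr2b call with fishmeal was lost whichever of the 10 mice was left out, and the Clec4g call was lost in 7 of 10 cases. The Fcgr2b estimate without 1 mouse ran from -0.46 to -0.31 and that of Clec4g from -0.41 to -0.33.

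Bmp2 was called with no single protein source, at -0.40 ± 0.13 with fishmeal (adjusted p = 0.108), -0.34 ± 0.13 with salmon filet (0.158) and -0.25 ± 0.13 with beef (0.368). With mouse 31 counted as beef, Bmp2 was at -0.37 ± 0.14 with salmon filet (0.137) and -0.23 ± 0.12 with beef (0.326). The fishmeal-fed mice, at 9.14, 9.22, 7.26, 8.77 and 7.80 CPM, all lay below the lowest chow-fed mouse at 9.29 CPM. Stab2 was highest with beef, at 79.7, 78.8, 82.0 and 68.3 CPM, and all 4 mice lay above the highest chow-fed mouse, by little in mouse 40. Its log2 fold change with beef was 0.33 ± 0.10 with an unadjusted p of 0.00535 and an adjusted p of 0.100 in edgeR, and an adjusted p of 0.0300 in DESeq2. With mouse 31 counted as beef it was 0.31 ± 0.09 (adjusted p = 0.0924).

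Fishmeal-fed mice were fully apart from chow-fed mice in 3 of 10 genes (Clec4g, Fcgr2b and Bmp2), salmon filet-fed mice in 0 and beef-fed mice in 2 (Clec4g and Stab2), beside 5.87%, 4.99% and 8.37% of all genes. When mouse 31 was counted as beef, salmon filet had 0 calls and beef had 1 (Clec4g), beside 4.42% and 3.05% of all genes. For fishmeal the median log2 fold change of the 10 genes was -0.29, for salmon filet -0.26 and for beef -0.14.

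The 3 protein sources were also compared with each other. None of the 10 genes was called by edgeR between fishmeal and salmon filet (0.157% of all genes called), fishmeal and beef (0.00607%) or salmon filet and beef (0.0%), nor in a single test of any difference among the HFD groups (0.106%). With mouse 31 counted as beef 0 were called as well, beside 0.17%, 0.0245%, 0.0% and 0.113% of all genes. In each of these comparisons 0 of the 10 genes had an unadjusted p under 0.05, and DESeq2 and limma called 0. The largest difference was in Stab1 between fishmeal (37.7 ± 10.8 CPM, n = 5) and beef (46.9 ± 11.8 CPM, n = 4), a log2 difference of -0.32 ± 0.22 with an interval of -0.81 to 0.17. Over the 10 genes and 3 pairs the intervals reached from -0.81 to 0.42 on the log2 scale.

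The pathways around these genes were described with lists of other genes. Other genes enriched in sinusoidal endothelium (10 genes) had 2 called, both lower, and a median log2 fold change of -0.29. These were Dnase1l3, a secreted DNA-degrading enzyme (66.9 ± 6.18 CPM in chow-fed, 51.4 ± 6.47 CPM in HFD-fed mice, log2 fold change -0.38 ± 0.09, adjusted p = 0.00636), and Ehd3, an endocytic trafficking protein (88.6 ± 9.17 and 68.3 ± 8.38 CPM, -0.38 ± 0.09, 0.00939). In 15 of 15 HFD-fed mice both lay under the mean of the chow-fed mice, and both stayed called with any mouse left out. With the clock score as a covariate both calls were lost (adjusted p = 0.164 for Dnase1l3 and 0.150 for Ehd3).

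Genes of endothelium in general (16 genes) had 0 called by edgeR, DESeq2 or limma, 1 with an unadjusted p under 0.05, and a median log2 fold change of 0.00. Sox7, an endothelial transcription factor, had the smallest p of that list (log2 fold change 0.25 ± 0.11, adjusted p = 0.174). The summed TPM of the 16 genes was 86.8 to 119 in chow-fed and 76.5 to 122 in HFD-fed mice, so the ranges overlapped. Relative to that sum, the log2 difference of Clec4g was -0.30, with 15 of 15 HFD-fed mice under the mean of the chow-fed mice. That of Stab2 was 0.21, with 1 of 15 under it. Fcgr2b (-0.34), Bmp2 (-0.33), Kdr (-0.28), Pecam1 (-0.28) and Cdh5 (-0.26) each had 13 or 14 of 15 under it. Lyve1 was at -0.21 (11 of 15), Oit3 at -0.19 (15 of 15) and Stab1 at 0.04 (4 of 15). Kdr, Pecam1 and Cdh5, described above as genes of endothelium, belong to the 10 genes and not to this list. Their log2 fold changes were -0.27, -0.27 and -0.24. Whether the 10 genes differ from endothelium in general was not tested.

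**Figure D3:**
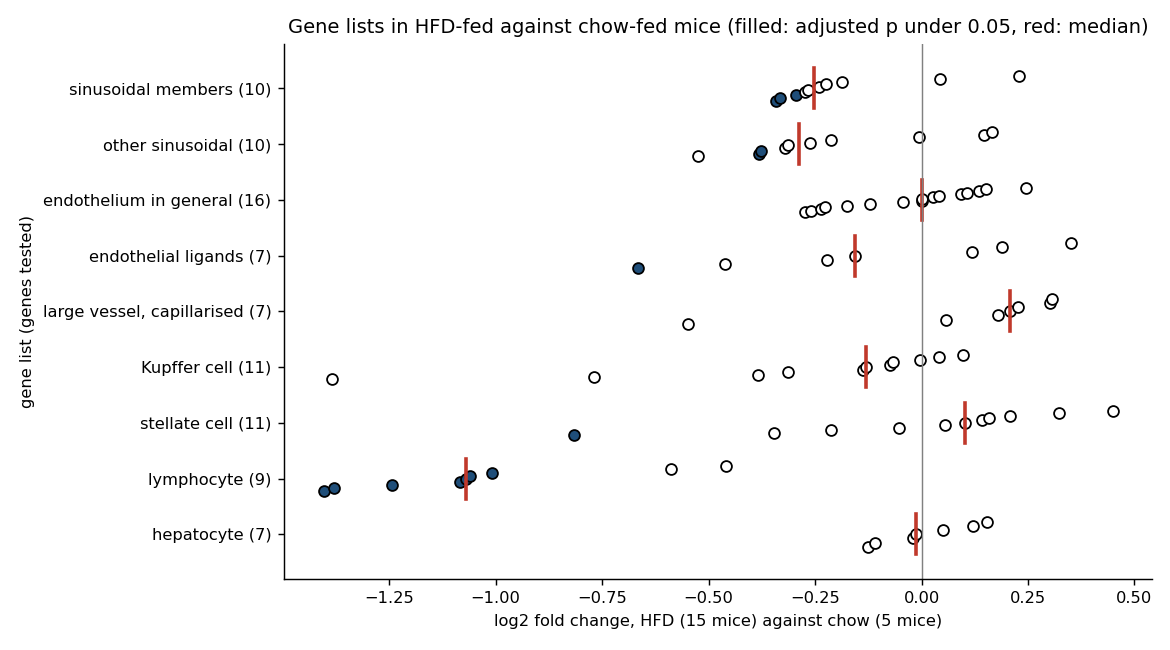
Log2 fold change of HFD-fed against chow-fed mice (horizontal axis) for every tested gene of the 10 members and of 8 other lists, with the number of genes tested in brackets. Points are genes, filled where the adjusted p was under 0.05, and the red line is the median of a list. The medians lie at -0.25 for the 10 genes, -0.29 for other sinusoidal genes, 0.00 for endothelium in general and -1.07 for lymphocyte markers.

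Genes of large vessels and of continuous or capillarised endothelium had 0 of 7 called by edgeR, DESeq2 or limma, 1 with an unadjusted p under 0.05, and a median log2 fold change of 0.21. Cd34, a sialomucin of continuous endothelium, had the smallest p and pointed the other way, at -0.55 ± 0.21 (adjusted p = 0.102). Among VEGF ligands and receptors other than Kdr, 0 of 8 were called by edgeR, DESeq2 or limma, 2 had an unadjusted p under 0.05, and the median was 0.01. Nrp2, a VEGF co-receptor, had the smallest p (0.26 ± 0.11, adjusted p = 0.138). Of 5 other Fc receptor genes, Fcgr1, Fcgr3, Fcgr4, Fcgrt and Fcer1g, which encodes a signalling chain of Fc receptors, 0 were called by edgeR and limma, 1 by DESeq2, and 1 had an unadjusted p under 0.05. That was Fcgrt, the neonatal Fc receptor, at 0.44 ± 0.14 (adjusted p = 0.0525), and the list's median was -0.19.

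Bmp6, the BMP ligand that endothelial cells secrete beside Bmp2, was lower in HFD-fed mice. Chow-fed mice had 4.23, 4.67, 5.16, 3.43 and 3.81 CPM, and HFD-fed mice had 1.92 CPM at the lowest and 3.55 at the highest. The log2 fold change was -0.67 ± 0.12 (adjusted p = 0.00109), all 15 HFD-fed mice lay below the chow mean, and the call held with any mouse left out. Bmp6 was the 1 gene called among 7 ligands that endothelial cells secrete, whose median was -0.16. Its log2 fold change was -0.82 ± 0.15 in fishmeal-fed mice (adjusted p = 0.0122), -0.64 ± 0.15 in salmon filet-fed mice (0.0289) and -0.52 ± 0.16 in beef-fed mice (0.105).

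Among 10 BMP receptor, co-receptor and SMAD genes 1 was called. Hjv, hemojuvelin, the BMP co-receptor of hepatocytes, was higher in HFD-fed mice (78.6 ± 7.64 CPM in chow-fed, 100.2 ± 8.70 CPM in HFD-fed mice, log2 fold change 0.35 ± 0.08, adjusted p = 0.00474). The median of the list was -0.05. Of 6 BMP-SMAD target genes 2 were called, in opposite directions, and the median was -0.39. Id1, a transcriptional inhibitor, was lower (3.58 ± 0.98 and 1.89 ± 0.62 CPM, log2 fold change -0.92 ± 0.22, adjusted p = 0.00898), and 15 of 15 HFD-fed mice lay under the mean of the chow-fed mice. Without chow mouse 7 the Id1 call was lost (adjusted p = 0.0547).

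Hamp2, a hepcidin copy, was higher (135 ± 59.1 and 312 ± 145 CPM, log2 fold change 1.2 ± 0.32, adjusted p = 0.0181), and that call was lost without chow mouse 2 (adjusted p = 0.0653) or chow mouse 5 (0.0534). Hamp, which encodes hepcidin itself, is named because of this role and was picked after its values were seen. It was at 498 ± 121 CPM in chow-fed and 370.0 ± 177 CPM in HFD-fed mice, with a log2 fold change of -0.43 ± 0.32 that was not called (adjusted p = 0.444). The hepcidin genes are close copies, so reads between them could be split in counting.

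**Figure D4:**
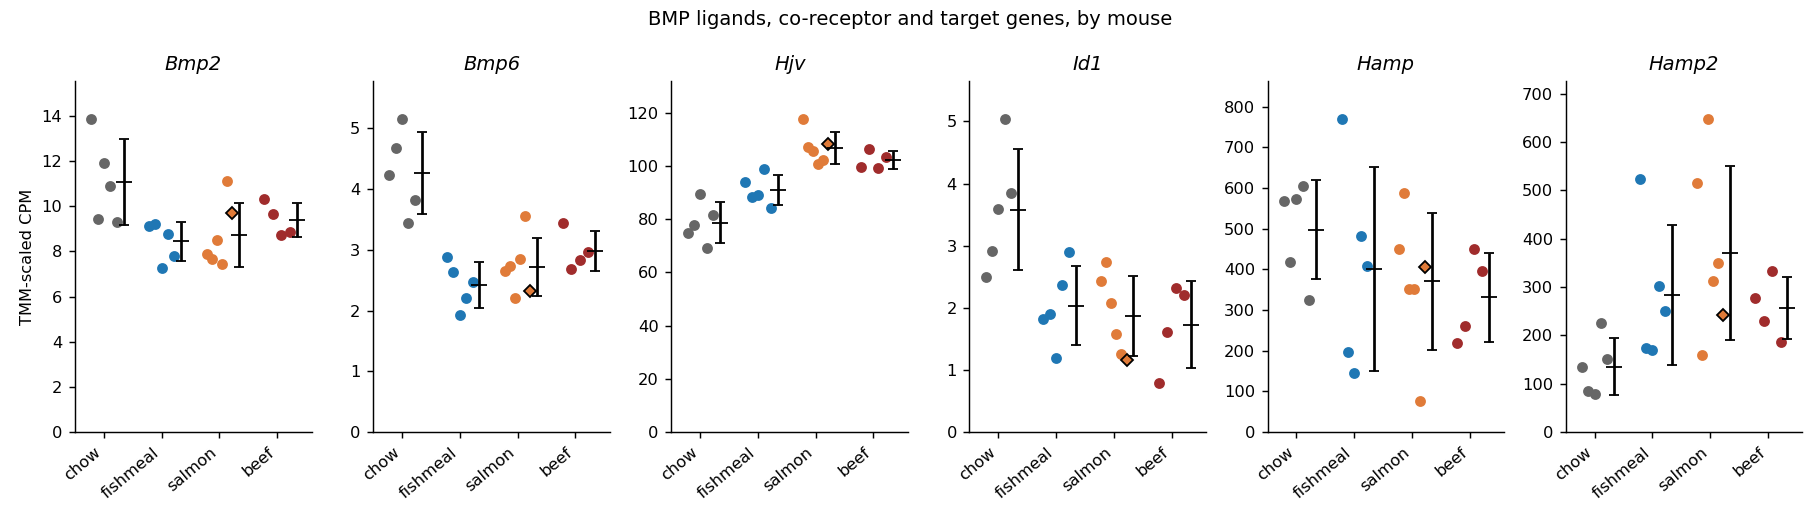
Level in every mouse (TMM-scaled CPM, vertical axis from 0) of Bmp2, Bmp6, the co-receptor gene Hjv and the target genes Id1, Hamp and Hamp2, by diet, with the mean ± SD beside each group and mouse 31 as a diamond. Bmp6 lies at 3.43 to 5.16 in chow-fed and at 1.92 to 3.55 in HFD-fed mice, and Hamp overlaps widely between the groups.

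Endothelial Wnt ligands act on hepatocytes around the central vein. The ligand genes Wnt2 (-0.22 ± 0.16, adjusted p = 0.438) and Wnt9b (-0.46 ± 0.22, 0.191, at 16 to 48 reads per library) were not called. Both are named after their values were seen. Of 11 pericentral Wnt target genes 3 were called, all lower, beside 9.75% of all genes called in either direction. The median of the list was -0.01. The called targets were Axin2, a feedback inhibitor of Wnt signalling (-0.77 ± 0.16, adjusted p = 0.00305), the transcription factor gene Tbx3 (-0.79 ± 0.15, 0.00148) and Cyp1a2, a drug-metabolising cytochrome (-0.94 ± 0.17, 0.000982). All 3 stayed called with any mouse left out. DESeq2 called 4 of the 11 genes, and 5 had an unadjusted p under 0.05 in edgeR. The other genes among these 5, named after their values were seen, had estimates above 0 and were not called. They were Cyp2e1, a cytochrome (0.47 ± 0.16, unadjusted p = 0.00652, adjusted p = 0.0591), with 0 of 15 HFD-fed mice below the chow mean, and Oat, an enzyme of ornithine breakdown (0.43 ± 0.19, unadjusted p = 0.0369, adjusted p = 0.172). With the clock score as a covariate Axin2, Tbx3 and Cyp1a2 kept an adjusted p of 0.0249 or less, while the calls of Id1 (0.0513), Bmp6 (0.0594), Hjv (0.0640), Ms4a1 (0.0864), Hamp2 (0.0996), Ehd3 (0.150) and Dnase1l3 (0.164) were lost. It left 0 of 9 lymphocyte markers and 0 of 10 other sinusoidal genes called, with 6 and 2 at an unadjusted p under 0.05.

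Other cell types of the liver were followed with their markers. Kupffer cell markers had 0 of 11 called by edgeR and limma and 1 by DESeq2, with 2 at an unadjusted p under 0.05 and a median log2 fold change of -0.13. Timd4, a phagocytic receptor of resident Kupffer cells, had the smallest p (-0.77 ± 0.26, adjusted p = 0.0599). Hepatocyte markers had 0 of 7 called by any of the 3 tools and 0 at an unadjusted p under 0.05 in edgeR, with a median of -0.01, and Hnf4a, a hepatocyte transcription factor, had the smallest p (-0.11 ± 0.09, adjusted p = 0.507).

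Of 11 stellate cell markers Hhip, a Hedgehog-binding protein, was the 1 gene called (-0.82 ± 0.18, adjusted p = 0.00510), and of 6 cholangiocyte markers it was Sox9 (-0.61 ± 0.18, 0.0301). The medians were 0.10 and -0.17. Among 4 lymphatic markers Prox1, a transcription factor also made by hepatocytes (-0.30 ± 0.08, adjusted p = 0.0266), and Mmrn1 (-1.30 ± 0.39, 0.0359, at 2 to 39 reads per library) were called lower. Among 5 red blood cell genes Alas2, of haem synthesis, was called higher (0.71 ± 0.16, 0.00602). The summed TPM of each of these marker lists overlapped between chow-fed and HFD-fed mice, for example 381 to 794 and 351 to 753 for Kupffer cell markers.

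The last question was how the 10 genes vary together between mice of one diet. Correlations were computed over the 20 mice on log2 CPM after centring on the group means, with 100000 permutations within groups, and adjusted over the 45 pairs. Pearson's r was above 0 for 37 of 45 pairs, with a median of 0.33 and a range of -0.34 to 0.89. By permutation, 8 pairs had an adjusted p under 0.05 for Pearson's r and 9 for Spearman's rho as computed over those same pairs.

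**Figure D5:**
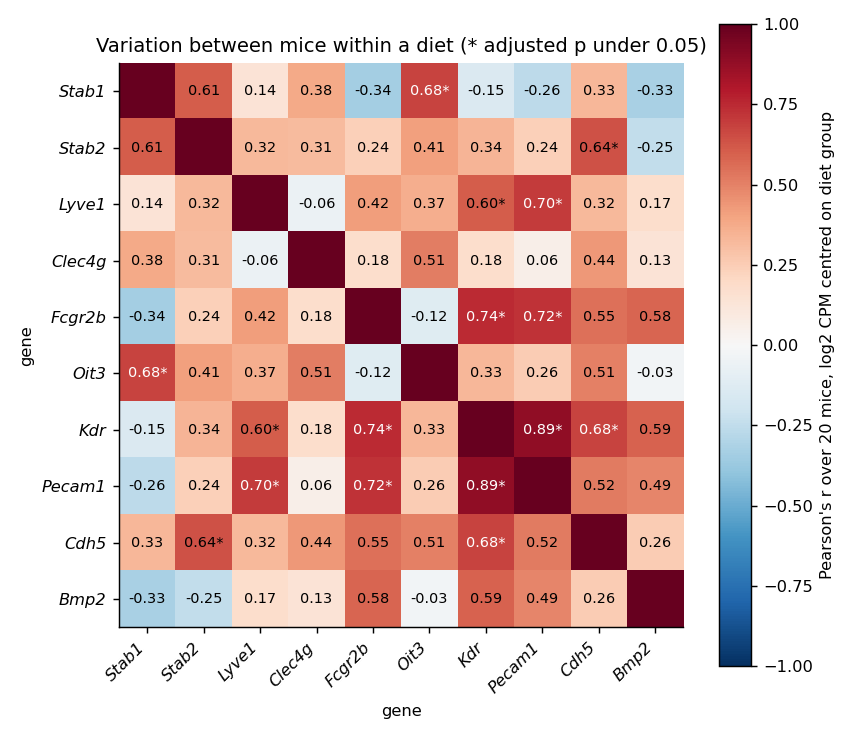
Pearson's r between the 10 genes over 20 mice, on log2 CPM centred on the diet group (colour scale from -1 to 1), with an asterisk where the permutation p adjusted over 45 pairs was under 0.05. Kdr, Pecam1, Fcgr2b, Lyve1 and Cdh5 hold 6 of the 8 marked pairs, and the other pairs are Stab1 with Oit3 and Stab2 with Cdh5.

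Kdr and Pecam1 varied most closely (r = 0.886, permutation p = 5e-05, adjusted p = 0.00225, rho = 0.85, permutation p = 6e-05, adjusted p = 0.0027). Without the 2 mice farthest from the median of Kdr, r was 0.823. Kdr was also correlated with Fcgr2b (r = 0.745, adjusted permutation p = 0.0199), Cdh5 (r = 0.675, 0.0348) and Lyve1 (r = 0.605, 0.0491), and Pecam1 with Fcgr2b (r = 0.724, 0.0348) and Lyve1 (r = 0.699, 0.0199). Stab1 went with Oit3 (r = 0.675, adjusted permutation p = 0.0348) and Stab2 with Cdh5 (r = 0.636, 0.0348). Across these 8 pairs r was 0.473 to 0.823 without the 2 mice farthest on the first gene, the lowest being Stab1 with Oit3.

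Stab1 and Stab2 had an r of 0.607 that did not pass (adjusted permutation p = 0.0983), and the lowest r of all pairs was that of Stab1 with Fcgr2b (-0.341, adjusted permutation p = 0.306). Clec4g, the gene with the smallest p between diets, had a median r of 0.18 with the other 9 genes, against 0.59 for Kdr. On log2(TPM + 1), 44 of 45 pairs were above 0, 32 had an adjusted p under 0.05 and the median r was 0.59. All values of a library share its scaling, which differs between CPM with TMM factors and TPM.

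Fishmeal mouse 13 and salmon filet mouse 27 were above their group mean for 10 of 10 genes, and beef mouse 40 for 0 of 10. Outside the 10 genes, the protein coding genes closest to the mean of their log2 CPM, among 11556 screened over the 20 mice after centring on group means, were Fgd5 (r = 0.899), Cd300lg (0.882), Itga9 (0.859), Arhgap31 (0.851) and Arrb1 (0.848). These values are descriptions of the highest of many correlations, and none of the 5 genes was called between HFD-fed and chow-fed mice (log2 fold changes -0.21 to -0.05).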

How the data were processed

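Liver RNA was prepared as strand-specific mRNA libraries, and per the labels 1 library was made per mouse. The authors trimmed reads with BBDuk, mapped them with HISAT2 (version 1.2.1 in the submitters' processing notes) and counted them per gene with featureCounts 1.4.6-p1, and the deposited counts are raw. The authors also deposited TPM, which summed to 1000000 in each library. Settings for strand and for reads that fit several genes are not given in the sources used here. The labels print GRCh38 for a mouse genome, and positions here are those of GENCODE M21 on GRCm38.

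The members and the gene lists were chosen with earlier results of these data known. Counts were tested with edgeR 4.0.16 in R 4.3.3 (TMM, a minimum count of 10 in filterByExpr, the quasi-likelihood test in both directions, Benjamini-Hochberg over all genes tested, called at an adjusted p under 0.05), on the libraries compared. SE is the log2 fold change divided by the root of F. Named genes of a list were those called in HFD against chow, at most 4 with the smallest p, or else the 1 with the smallest p. A gene that this rule would name is not reported here. Similar genes were sought with blastn 2.17.0 (at least 100 bases at 85% identity). Alternatives were DESeq2 1.42.0, its size factors, upper quartile factors, no filter, limma 3.58.1 on log2(TPM + 1) at a mean TPM of 0.5, a fit on all groups, the clock score, each mouse left out, mouse 31 regrouped or left out, and, chosen after seeing the data, offsets for GC content and gene length. Scripts were tested on simulated data. No pair of libraries agreed within counting noise (chi-square per gene 35.3 to 466 over 41 pairs). The p-values measure the spread between mice, whose cages and litters are not given.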

Additional observations from a re-analysis of the deposited data

Results flagged for a closer look

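Within each diet group the highest and the lowest mouse of each of the 10 genes were compared with the rest, 40 group tests in all, of which chance alone would flag about 1 in 20. In 3 of them, all among the 4 mice labelled as beef, 1 mouse stood apart. Beef mouse 32 had 9.27 CPM of Lyve1, where the other 3 beef-fed mice had 5.55 to 6.02 CPM. The same mouse had 24.6 CPM of Pecam1, against 16.1 to 17.3 CPM in the others. Beef mouse 39 had 41.2 CPM of Clec4g, against 38.1 to 38.2 CPM. The Clec4g gap is narrow on the scale of the gene, and that mouse was still below every chow-fed mouse. Mouse 31, whose column is named for beef, was not among these 4 mice. It had 6.65 CPM of Lyve1 and 19.1 CPM of Pecam1, both inside the gaps given above. Its 35.8 CPM of Clec4g lay below the mice labelled as beef. The comparison was not repeated with mouse 31 counted as beef.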

How the results depend on the processing

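In HFD against chow, 3 genes were called in the main analysis, beside 9.75% of all genes. The count was 0 with the clock score as a covariate (beside 1.62%) and 1 to 4 with 1 mouse left out (5.7% to 11.3%). In fishmeal against chow, 2 were called, beside 3.38% of all genes. The count was 1 with DESeq2 size factors (beside 3.3%) and 1 with upper quartile factors (3.41%). It was 0 without a filter on low counts (2.12%) and 0 with limma on log2(TPM + 1) (2.43%). With 1 mouse left out it was 0 to 1 (1.73% to 4.1%). In salmon filet against chow, 0 were called, but 1 (Clec4g) with GC and length offsets, beside 7.5% of all genes against 4.46% in the main analysis. In beef against chow, 0 were called, but 2 with DESeq2 (Clec4g and Stab2, beside 6.17% of all genes against 2.48%), 1 with GC and length offsets (5.92%), and 1 with mouse 31 grouped by its column name (3.05%). These 2 comparisons and those between protein sources stayed at 0 calls with any 1 mouse left out. Pairs of genes with an adjusted p under 0.05 rose from 8 to 32 on log2(TPM + 1). Causes were not tested, except that leaving out a mouse or filter changes how many mice or genes enter. Clec4g, Fcgr2b and Bmp2 had negative estimates in HFD against chow in all 29 analyses run. Bmp2 was not called without a filter on low counts (adjusted p = 0.0576), and Pecam1 was called with GC and length offsets (adjusted p = 0.0489). The estimate of Stab1 was below 0 in 5 of 29. No paired analysis was possible because the groups share no mouse numbers. With 4 to 6 mice per protein source, log2 differences near 0.3 were often not called.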
